A study of Mus musculus with 6 samples.

Results

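The genes described here are 36 genes of the ATF4 integrated stress response and of amino-acid metabolism, in rib chondrocytes from wild-type and Slc39a13-KO animals. They were chosen by name from what is known of the pathway, and the choice was not blind to earlier results of these data. The array annotation gave a probe set to 34 of the 36, among 18193 genes with a named probe set, and Pycr1 and Gdf15 had none in the annotation used here. Each gene was represented by its brightest probe set by the mean of the 6 arrays. All 34 passed the filter on dim probe sets and were among the 12715 genes tested.

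Wild-type and KO chondrocytes were profiled on Affymetrix mouse genome arrays, with 3 arrays per group. Slc39a13 codes for a zinc transporter of the ZIP family. The KO mice were homozygous for an allele in which a Neo cassette stood in place of several Slc39a13 exons, they were bred from heterozygous parents, and the wild-type cells carried no such allele. Cells of both genotypes came from the rib cages of newborn mice, were released with collagenase, cultured without a described sort and received no treatment, and nothing says whether an array held 1 animal or a pool, so that a p-value reflects the variation between arrays, which may be technical.

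The integrated stress response starts when a kinase phosphorylates the translation factor eIF2α. PERK, the product of Eif2ak3, responds to unfolded proteins in the endoplasmic reticulum, and GCN2, the product of Eif2ak4, responds to uncharged tRNA when amino acids run short. General translation then falls while the mRNA of Atf4 is translated more, and ATF4 switches on genes for amino-acid uptake, amino-acid synthesis and tRNA charging. Chondrocytes secrete large amounts of collagen and proteoglycan, which draws on the folding capacity of the endoplasmic reticulum and on the supply of amino acids. The arrays measured mRNA only, and neither phosphorylation nor translation.

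Values are MAS5-type signals on a linear scale, and differences are of log2(signal + 7.96), KO minus wild type, with their standard error, which understates the change of dim genes. Values of single arrays are given in the order of replicates 1, 2 and 3. Slc39a13 gave signals of 901, 1081 and 991 in wild type and 100.5, 196 and 165 in KO, so each array was in accord with its genotype label. Where its probe set lies relative to the deleted exons was not analysed here. The array of KO replicate 1 was the least like the rest. Over the tested genes it correlated with each of them at 0.946 to 0.956, against at least 0.964 between any others, and its median signal was 108 against 80.7 to 88.4 on the other arrays. All 11 chondrocyte markers passed the filter, and 5 were higher and 0 lower in KO cells. Among all tested genes 4.64% were higher and 4.68% lower. The other 6 markers did not pass the test, with differences from -0.40 for Matn1 to 0.50 for Col2a1 (limma, adjusted p = 0.0837). The summed signal of the 11 was 98621 to 122185 in wild type and 144727 to 203392 in KO. Bright genes weigh most in it, such as Col2a1 with means of 33885 and 48581. Of 9 mesothelial markers 8 were lower, of which Upk1b and Krt19 passed the filter only through their wild-type level, with sums of 4721 to 8158 and 596 to 1025, and no array had any of them at 0. Of 8 fibroblast and perichondrium markers 5 were higher and 2 lower, of 6 tested skeletal muscle markers 1 was higher and 1 lower, and of 5 tested macrophage markers 0 were higher and 1 lower. The part of these cell type differences in the values that follow was not tested. In such bulk samples fewer cells of a type and less RNA per cell cannot be told apart.

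Of the 34 tested members 18 were higher in KO cells at an adjusted p under 0.05, 0 were lower and for 16 the test was not passed. Among all tested genes 4.64% were higher and 4.68% lower. The median log2 difference was 0.35 over the members and 0.01 over all genes. All 3 KO arrays lay above all 3 wild-type arrays for 22 members, among them all 18 that rose, and below them for 1 member, whereas 16% of all genes had their KO arrays above and 14.9% below. The increases were between 1.24-fold and 2.60-fold. At an unadjusted p under 0.05 with limma, 5 further members were higher and 0 were lower. No share of all genes at that threshold is given here, so this count has no background. The largest increases were those of the hormone gene Fgf21, the neutral amino-acid transporter gene Slc1a4, the secreted glycoprotein gene Stc2, the glutathione-degrading enzyme gene Chac1 and the transporter subunit gene Slc3a2.

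**Figure D1:**
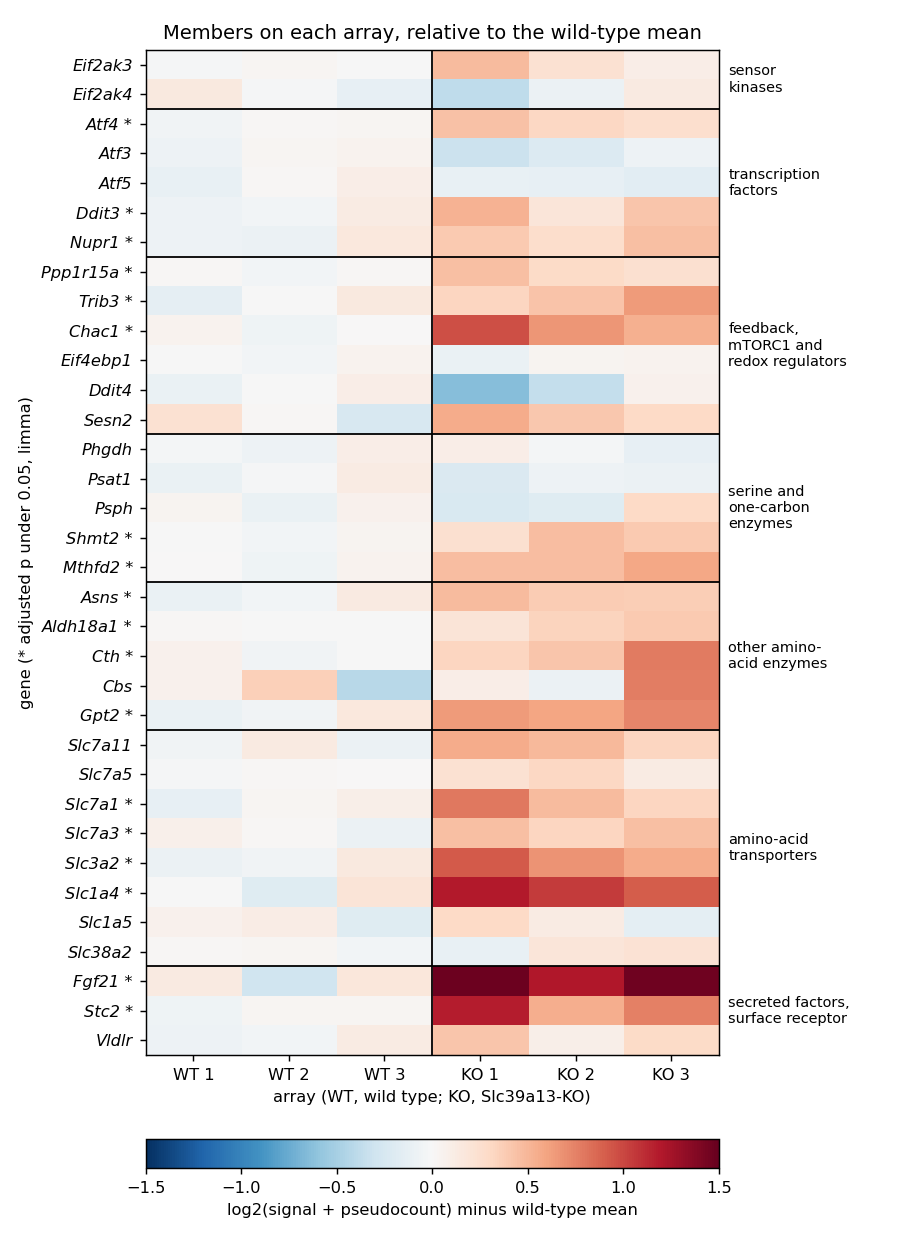
Heat map of the 34 tested members (lines, ordered by role) on the 6 arrays (columns). Colour is log2(signal + pseudocount) minus the mean of the 3 wild-type arrays, red for higher and blue for lower, and an asterisk marks an adjusted p under 0.05 (limma). The deepest red lies in Fgf21, Slc1a4 and Stc2 on the KO arrays. Of the 18 asterisked genes 11 were highest on KO replicate 1, a count given without the share of all genes.

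The shift was present on each KO array. The median deviation of the 34 members from their 6-array mean was -0.17, -0.18 and -0.14 in wild type and 0.23, 0.13 and 0.18 in KO, while that of all genes was between -0.00 and 0.04 on all 6 arrays. Of the 18 genes that rose, 11 were highest on KO replicate 1, 1 on KO replicate 2 and 6 on KO replicate 3. The share of all genes that were highest on each array is not given here, so these counts have no background. Without KO replicate 1, 16 members were higher, beside 4.4% of all genes. Without KO replicate 2 they were 13, beside 2.83%, and without KO replicate 3 they were 16, beside 6.11%. Fewer members passed when a wild-type array was left out: 8, 7 and 11 without wild-type replicate 1, 2 or 3. The share of all genes called higher fell by these omissions as well, to 1.99%, 1.77% and 2.09%. In all of these fits the 18 genes kept a positive difference. Their groups did not overlap, so leaving out 1 array could not change the sign on the same probe set. Chac1, Mthfd2, Slc3a2, Slc1a4, Fgf21, Stc2 and Gpt2 passed the threshold whichever array was left out, and the other 11 lost it in at least 1 of the 6 fits.

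**Figure D2:**
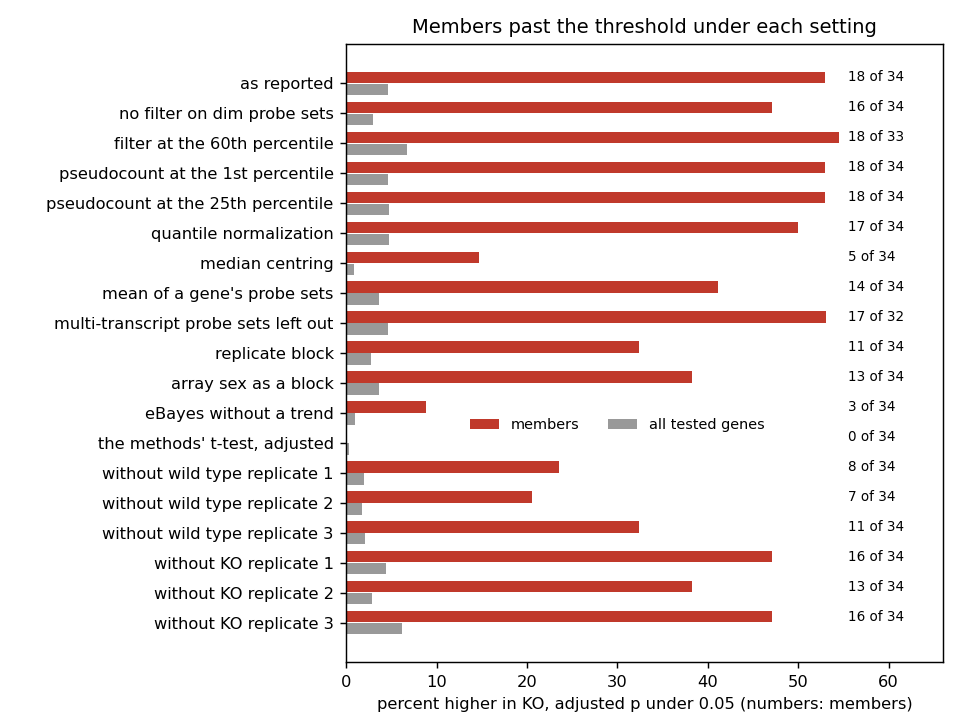
Share of members (red) and of all tested genes (grey) that were higher in KO cells at an adjusted p under 0.05, under each way of processing. The numbers beside the bars are the members past the threshold, from 18 of 34 as reported to 0 of 34 with the methods' t-test after adjustment.

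The share of calls also depended on the scaling and on how limma estimated the spread. When each array was centred on its median, which lowered KO replicate 1, the members higher in KO cells fell to 5 (Chac1, Fgf21, Slc1a4, Slc3a2 and Stc2), and all genes split into 106 higher (0.834%) and 230 lower in place of 590 and 595. Without the trend that lets the spread depend on the signal, 3 members passed (Fgf21, Gpt2 and Slc1a4), 8.82% of the members beside 0.952% of all genes. The methods' t-test called 0 members after Benjamini-Hochberg adjustment, beside 0.322% of all genes, and 20 at an unadjusted p under 0.05, 58.8% of the members beside 10.6% of all genes. By their Xist signal wild-type replicate 3 and KO replicate 2 differed in sex from the other arrays. With array sex as a block 13 members were higher, beside 3.59% of all genes, and Atf4, Nupr1, Aldh18a1, Ddit3 and Ppp1r15a lost their calls (adjusted p = 0.0553, 0.0543, 0.0623, 0.0733 and 0.0766).

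ATF4 binds a composite C/EBP-ATF element, and its core TGATGNAA was searched on both strands in windows of 250 bases before to 50 after each start site in RefSeq (GRCm38.p6). It was present in 3.97% of 32851 windows, and 4.51% of 27025 genes had it in a window. Of the members 31 had a window and 10 of these, 32.3%, held the core. They were 6 of the 16 members with a window that rose (Fgf21, Slc1a4, Chac1, Trib3, Asns and Nupr1), 3 of the 13 that did not pass the test (Slc7a11, Vldlr and Atf3), and Pycr1, which was not tested. The following stretches show the core, in capitals, in the 4 genes of the first group with the largest differences. All 4 are written 5′ to 3′ on the strand of the gene, where the core reads in reverse complement.
Fgf21: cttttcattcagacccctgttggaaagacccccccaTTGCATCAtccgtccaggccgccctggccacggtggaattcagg
Slc1a4: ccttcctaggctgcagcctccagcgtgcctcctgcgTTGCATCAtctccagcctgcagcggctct
Chac1: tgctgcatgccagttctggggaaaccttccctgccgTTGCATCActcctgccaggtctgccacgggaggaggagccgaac
Trib3: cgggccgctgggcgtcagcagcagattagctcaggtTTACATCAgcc
The Fgf21 stretch is chr7:45615586-45615665 on the minus strand, with the core 139 to 132 bases before the start. That of Slc1a4 is chr11:20332689-20332753 on the minus strand, and its core spans the start site itself. The Chac1 stretch is chr2:119351013-119351092 on the plus strand, with the core 193 to 186 bases before the start. In Trib3 the stretch is chr2:152344036-152344082 on the minus strand, and the core covers bases 15 to 22 of the transcript. The members were chosen as known genes of the ATF4 pathway, so their share beside that of all genes is no result of these data. A match describes these letters and is neither a binding site nor a cause. A window without one says nothing about binding elsewhere in the gene.

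Neither of the sensor kinase genes passed the test. Eif2ak3, which codes for PERK, gave signals of 859.8, 888 and 869 in wild type and 1214, 1019.7 and 938 in KO. The KO arrays lay above the wild-type arrays, narrowly for replicate 3, with a log2 difference of 0.27 ± 0.11 (95% interval 0.02 to 0.51, adjusted p = 0.161). Eif2ak4, which codes for GCN2, gave 430.4, 382 and 354 in wild type and 296, 365 and 427 in KO. Its groups overlapped, and the difference was -0.11 ± 0.16 (95% interval -0.47 to 0.26, adjusted p = 0.726).

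Of the 5 transcription factors Atf4, Ddit3 and Nupr1 rose, while Atf3 and Atf5 did not pass the test and had negative differences. Atf4, the central factor of the response, gave signals of 10490.4, 10960.4 and 11085 in wild type and 14733, 13436 and 12895 in KO. All KO arrays lay above all wild-type arrays, by 1.26-fold or 0.33 ± 0.08 on the log2 scale (adjusted p = 0.0282). Ddit3, which codes for CHOP, a factor of prolonged stress that acts with ATF4, gave 2800.3, 2864 and 3218 in wild type and 4236, 3349.5 and 3930.2 in KO. These groups did not overlap either, though KO replicate 2 was close to wild-type replicate 3, and the difference was 0.37 ± 0.10 (adjusted p = 0.0466). Nupr1 codes for a small stress-induced nuclear protein, and its signals were 6409, 6369 and 7531 in wild type and 8884, 8129.8 and 9265 in KO. Every KO array was above every wild-type array, with a difference of 0.37 ± 0.09 (adjusted p = 0.0304).

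Atf3, a stress-induced factor of the same family, gave signals of 287, 309 and 314 in wild type and 240.0, 262 and 286 in KO. It was the only member whose KO arrays all lay below the wild-type arrays, but the difference of -0.21 ± 0.15 did not pass the test (adjusted p = 0.446). Atf5, which is under translational control like Atf4, gave 3531, 3858 and 4071 in wild type and 3541, 3493 and 3416 in KO. The groups overlapped at KO replicate 1 and wild-type replicate 1, with a difference of -0.13 ± 0.08 (adjusted p = 0.334). The calls on the 3 genes that rose did not hold in every fit with 1 array left out, and none of them passed with array sex as a block. Adjusted p reached 0.122 for Atf4 on leaving out any wild-type array or KO replicate 2, 0.172 for Ddit3 on leaving out any array but KO replicate 2, and 0.151 for Nupr1 without wild-type replicate 1 or 2 or KO replicate 3.

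Among the 6 feedback, mTORC1 and redox regulators Chac1, Trib3 and Ppp1r15a rose. Chac1, which codes for an enzyme that breaks down glutathione, gave signals of 2177, 2017 and 2112 in wild type and 4122, 3318 and 3043 in KO. The lowest KO array was far above the highest wild-type array, and the increase was 1.65-fold (0.72 ± 0.11 on the log2 scale, adjusted p = 0.0044). Trib3, which codes for a pseudokinase that holds back ATF4 and CHOP, gave 2067, 2258 and 2504 in wild type and 2838, 3059.6 and 3551 in KO. Its groups were separate and the difference was 0.47 ± 0.10 (adjusted p = 0.0223). Ppp1r15a codes for GADD34, the subunit that brings a phosphatase to eIF2α, and its signals were 1093, 1049.7 and 1086 in wild type and 1473, 1319.8 and 1276 in KO. Here too no KO array fell among the wild-type arrays, with a difference of 0.33 ± 0.09 that was nearest of all 18 to the threshold (adjusted p = 0.047).

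The other three regulators of this kind act on mTORC1 or below it and did not pass the test. Sesn2, a leucine-binding inhibitor of mTORC1, had mean signals of 483 ± 78.5 in wild type and 644 ± 60.3 in KO (SD, n = 3) and separate groups, with a difference of 0.42 ± 0.14 (adjusted p = 0.0983). Its second probe set gave nearly the same value, 0.41 (adjusted p = 0.129), and with the mean of both Sesn2 passed the test, at 0.41 (adjusted p = 0.0379). Ddit4, whose product also inhibits mTORC1, had means of 1663 ± 118 in wild type and 1365 ± 342 in KO (SD, n = 3), and its difference of -0.31 ± 0.15 was the most negative of the members (adjusted p = 0.241). Without KO replicate 3, which lay within the wild-type range, the Ddit4 difference was -0.50 and passed the test (adjusted p = 0.0213). Eif4ebp1, a repressor of cap-dependent translation, had means of 10191 ± 317 in wild type and 10191 ± 572 in KO (SD, n = 3) and a 95% interval of -0.17 to 0.17. For the genes that rose, Chac1 kept its call whichever array was left out. Trib3 lost it without wild-type replicate 1 or 2 or KO replicate 2 (adjusted p up to 0.0966), and Ppp1r15a on leaving out any array but KO replicate 3 (up to 0.181).

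**Figure D3:**
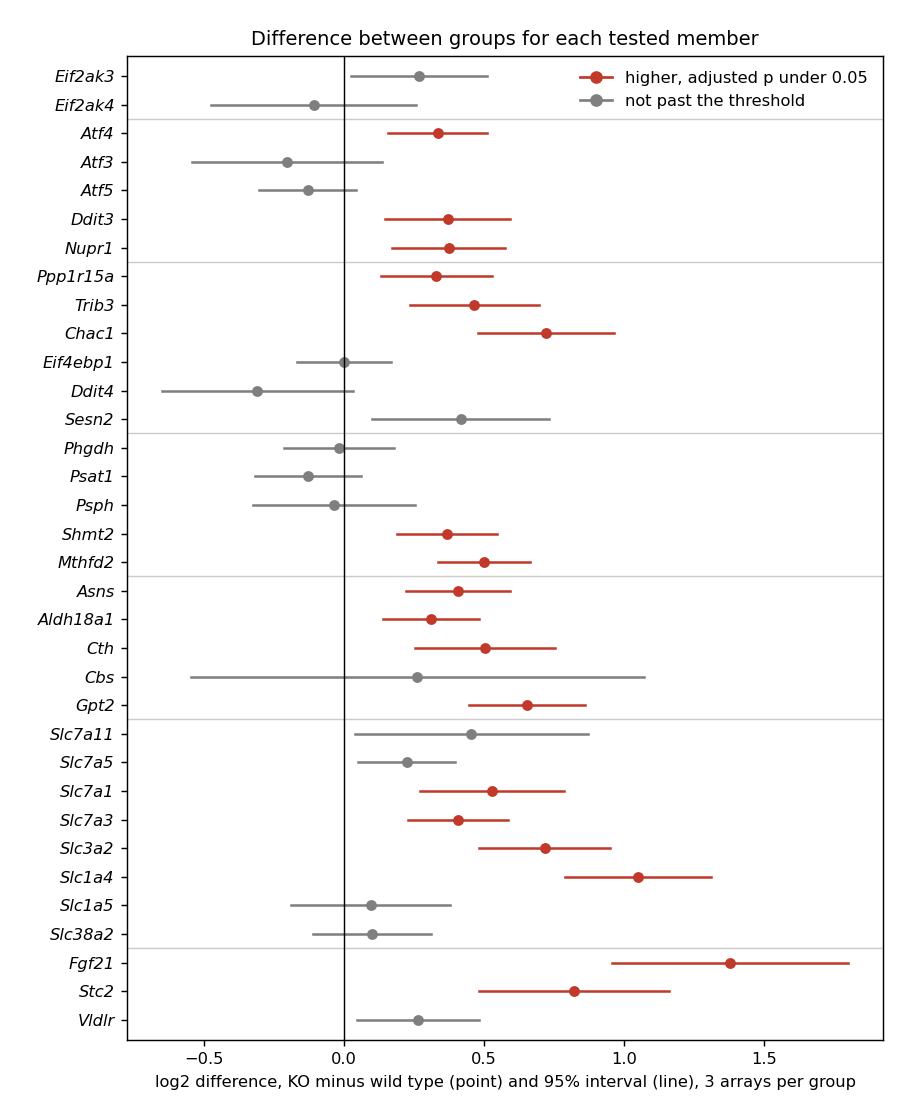
Log2 difference, KO minus wild type, of each tested member (point) with its 95% interval from limma (line), ordered by role, 3 arrays per group. Red marks the 18 members past the threshold, all to the right of 0, and grey the 16 others, 8 on each side of 0.

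The serine and one-carbon enzymes were divided. The 3 enzymes of serine synthesis did not pass the test. Phgdh, the first step of the path, had means of 11735 ± 781 in wild type and 11589.9 ± 951 in KO (SD, n = 3) and a 95% interval of -0.21 to 0.18 for the log2 difference. Psat1, the second step, had 13934 ± 1111 in wild type and 12714 ± 654 in KO (SD, n = 3), with an interval of -0.32 to 0.06. Psph, the last step, had 4982 ± 311 in wild type and 4918 ± 1042 in KO (SD, n = 3) and an interval of -0.33 to 0.25. For each of these genes the groups overlapped, and the interval did not reach 0.5 in either direction.

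Both mitochondrial enzymes downstream of serine rose. Mthfd2, which oxidises one-carbon units in mitochondria, gave signals of 3922, 3759 and 4076 in wild type and 5385, 5412 and 5839 in KO. The KO arrays lay clear of the wild-type arrays, with a difference of 0.50 ± 0.07 (adjusted p = 0.00406). Shmt2, which converts serine to glycine there, gave 5299.7, 5163 and 5477 in wild type and 6284, 7334 and 6988 in KO. Its groups were also separate, and the difference was 0.37 ± 0.08 (adjusted p = 0.0201). Mthfd2 passed the test in each fit with 1 array left out, while Shmt2 missed it without any of the wild-type arrays or without KO replicate 2 (adjusted p up to 0.112).

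Of the 5 other amino-acid enzymes tested 4 rose. Gpt2, the mitochondrial alanine aminotransferase, gave signals of 1304, 1349 and 1563 in wild type and 2179, 2109 and 2335 in KO. No KO array came near the wild-type arrays, and the increase was 1.57-fold (0.65 ± 0.09, adjusted p = 0.00345). Asns codes for asparagine synthetase, a much used readout of ATF4, and its signals were 8946, 9285 and 10499.6 in wild type and 13229, 12489 and 12303 in KO. The groups did not overlap, with a difference of 0.41 ± 0.08 (adjusted p = 0.0155). Cth, which makes cysteine from cystathionine, gave 3714, 3423 and 3554 in wild type and 4437, 4749.9 and 6098 in KO. KO replicate 3 was the highest of these, and the difference was 0.50 ± 0.11 (adjusted p = 0.0223). Aldh18a1, which starts proline synthesis from glutamate, gave 5841, 5745 and 5744 in wild type and 6610.3, 7308 and 7602 in KO. The wild-type arrays were close together and below all KO arrays, with a difference of 0.31 ± 0.08 (adjusted p = 0.0331).

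Cbs, which makes the cystathionine that Cth cleaves, was dim, at 84.8 ± 24 in wild type and 104 ± 37 in KO (SD, n = 3). Its interval of -0.55 to 1.07 on the log2 scale was the widest among the members, and the groups overlapped. Pycr1, the last enzyme of proline synthesis, was not measured. With 1 array left out at a time, Gpt2 kept its call, Asns lost it without wild-type replicate 1 or 2 (adjusted p up to 0.0966), Cth without any one of the wild-type arrays (up to 0.103), and Aldh18a1 in every case but without KO replicate 1 (up to 0.145).

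Of the 8 amino-acid transporters 4 rose, and all 8 differences were positive. Slc1a4, a carrier of alanine, serine and cysteine, gave signals of 795, 704 and 914 in wild type and 1840.3, 1663 and 1509.9 in KO. The lowest KO array was well above the highest wild-type array, and the increase was 2.07-fold (1.05 ± 0.12, adjusted p = 0.000887). Slc3a2 codes for the heavy chain that the light chains Slc7a5 and Slc7a11 need to reach the surface, and its signals were 4288, 4409 and 5064 in wild type and 8637, 7329 and 6719 in KO. Its groups were separate, with an increase of 1.64-fold (0.72 ± 0.11, adjusted p = 0.00402).

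The carriers of cationic amino acids, Slc7a1 and Slc7a3, rose as well. Slc7a1 gave signals of 3519, 3923 and 4083 in wild type and 6616, 5330.3 and 4814 in KO, with a difference of 0.53 ± 0.12 (adjusted p = 0.0201). Slc7a3 gave 2159.6, 2075 and 1941 in wild type and 2807, 2579 and 2806 in KO, with a difference of 0.41 ± 0.08 (adjusted p = 0.0123). In both genes all KO arrays were above all wild-type arrays, by the widest margin for Slc7a1 on KO replicate 1. Slc1a4 and Slc3a2 passed whichever array was left out, Slc7a1 did not pass without wild-type replicate 1 or 2 (adjusted p up to 0.0878), and Slc7a3 did not without wild-type replicate 2 or 3 (up to 0.0683).

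Slc7a11 and Slc7a5, the members that code for light chains of Slc3a2, did not pass the test. Slc7a11, which takes up cystine in exchange for glutamate, gave signals of 163, 188 and 159.9 in wild type and 253, 241 and 214 in KO. The groups were separate, but the signals were low and the difference of 0.45 ± 0.19 had a wide interval of 0.04 to 0.87 (adjusted p = 0.161). Slc7a5, the leucine carrier, had means of 2251 ± 25.9 in wild type and 2632 ± 176 in KO (SD, n = 3), also with separate groups, and a difference of 0.22 ± 0.08 (adjusted p = 0.108). It passed without KO replicate 3, at 0.27 (adjusted p = 0.0478). The glutamine carriers Slc1a5 and Slc38a2 overlapped between the groups, with differences of 0.09 ± 0.13 (interval -0.19 to 0.38) and 0.10 ± 0.09 (interval -0.11 to 0.31).

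Among the secreted and surface products, Fgf21 and Stc2 rose. Fgf21, a hormone of the fasting and stress response, gave signals of 165, 121 and 169 in wild type and 431, 355 and 428 in KO. It had low signals on all arrays, the KO arrays all lay far above the highest wild-type array, and the increase of 2.6-fold was the largest of the members (1.38 ± 0.19, adjusted p = 0.00283). Stc2, a secreted glycoprotein, gave 471, 503 and 500.3 in wild type and 1118, 719 and 833 in KO. KO replicate 1 was the highest by a wide margin, the other KO arrays were above all wild-type arrays too, and the difference was 0.82 ± 0.15 (adjusted p = 0.00958). Both genes passed the test whichever array was left out. Vldlr, a receptor for lipoproteins and reelin, had means of 3001 ± 221 in wild type and 3611 ± 407 in KO (SD, n = 3) with overlapping groups and a difference of 0.26 ± 0.10 (adjusted p = 0.127). Gdf15, a secreted stress marker, was not measured.

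The annotation gave the 34 genes 77 probe sets, of which 73 passed the filter, 39 of them beside the ones used above. Of these 39, 7 were higher in KO cells and 0 lower at an adjusted p under 0.05 over all 23294 probe sets. The share of all 23294 probe sets past that threshold is not given here, so this count has no background. Among the 18 genes that rose 12 had at least 1 other probe set, 22 in all, with 18 positive and 4 negative differences. Every other probe set of Slc1a4, Mthfd2 and Trib3 also passed. The other probe sets of Slc1a4 gave 0.80 (adjusted p = 0.00738) and 0.72 (adjusted p = 0.00352), and that of Mthfd2 gave 0.81 (adjusted p = 0.00799).

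For other genes the probe sets disagreed. The second probe set of Atf4, of a type that may bind several transcripts, gave -0.07 (adjusted p = 0.765), and that of Ddit3 gave -0.07 (adjusted p = 0.862). The second probe set of Asns, of the same type as that of Atf4 and nearly as bright as the first at 9304 in wild type and 10402 in KO, gave 0.16 (adjusted p = 0.271) beside the 0.41 above. A bright second probe set of Slc7a1 gave 0.17 (adjusted p = 0.219) beside 0.53, that of Shmt2 0.24 (adjusted p = 0.102) beside 0.37, and that of Nupr1 0.31 (adjusted p = 0.0868) beside 0.37. In Aldh18a1 1 other probe set passed, at 0.41 (adjusted p = 0.0203), and the other three gave 0.89, 0.20 and 0.16 and did not pass. Further negative values were those of a dim Slc7a1 probe set, -0.20 (adjusted p = 0.774), and of a dim Shmt2 probe set, -0.27 (adjusted p = 0.698). In Gpt2 the probe sets gave 0.68, 0.63 and 0.06 beside the 0.65 above, and in Stc2 0.41 and 0.10 beside 0.82. Over all probe sets 16 of the 18 remained past the threshold, without Ddit3 (adjusted p = 0.061) and Ppp1r15a (adjusted p = 0.0622). Which probe set follows the transcript best was not tested.

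**Figure D4:**
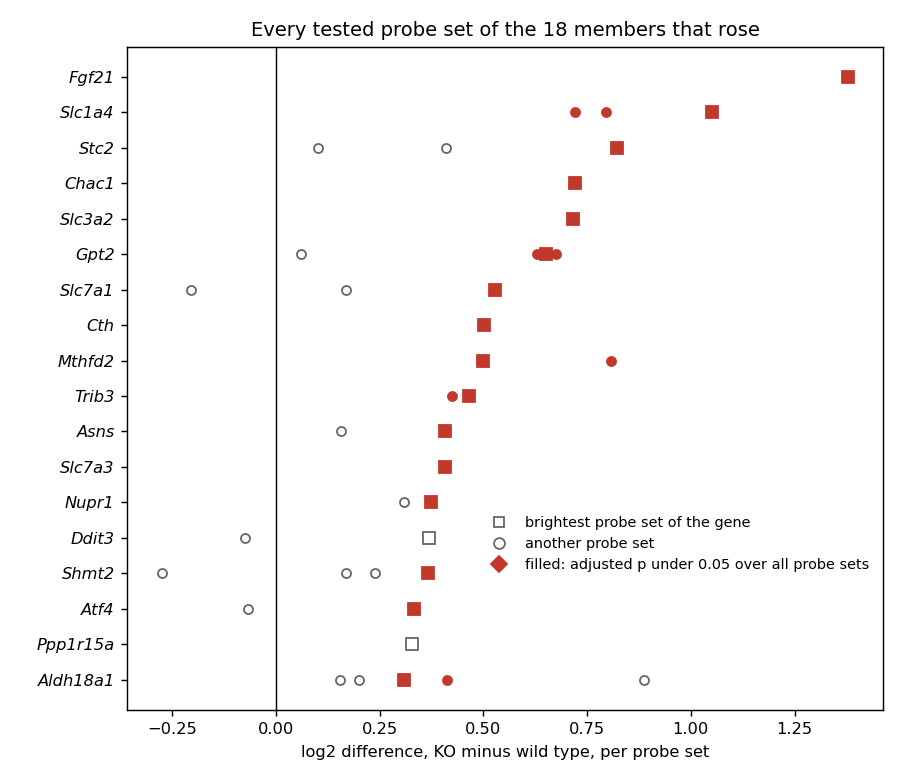
Log2 difference, KO minus wild type, of every tested probe set of the 18 members that rose. Squares are the brightest probe set of a gene and circles the others, and filled symbols passed an adjusted p of 0.05 over all probe sets. The circles of Slc1a4, Mthfd2 and Trib3 are all filled, and 4 circles lie left of 0.

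Other genes of the pathway were taken from lists beside the members. Of 19 tested cytosolic aminoacyl-tRNA synthetases, which charge tRNAs and are known targets of ATF4, 3 were higher and 0 lower, with a median log2 difference of 0.18. Those 3 made 15.8% of the list, beside 4.64% of all genes. They were Lars, for leucine (0.45 ± 0.07, adjusted p = 0.00566), Cars, for cysteine (0.38 ± 0.07, adjusted p = 0.0122), and Mars1, for methionine (0.31 ± 0.07, adjusted p = 0.0249). Of 17 genes for eIF2, its exchange factor, its other kinases and its phosphatase, 1 was higher and 0 lower, with a median of 0.04. This 5.88% of the list was near the 4.64% of all genes. The gene was Gcn1, an activator of GCN2 (0.68 ± 0.18, adjusted p = 0.045).

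Of 21 further partners and targets of ATF4 or CHOP 4 were higher and 1 lower, with a median of 0.14. These were 19.0% and 4.76% of the list, beside 4.64% and 4.68% of all genes. The share that was lower was thus near that of all genes. Mitochondrial Pck2, which makes phosphoenolpyruvate, had means of 4329.6 ± 389.9 in wild type and 6766 ± 342 in KO (SD, n = 3) and a difference of 0.65 ± 0.09 (adjusted p = 0.00237). Aldh1l2, a mitochondrial folate enzyme, differed by 0.57 ± 0.08 (adjusted p = 0.0023), and Ero1a, an oxidase of the endoplasmic reticulum, by 0.38 ± 0.08 (adjusted p = 0.0152). The glycine transporter gene Slc6a9, named here after its value was seen, differed by 0.36 ± 0.08 (adjusted p = 0.0197). The gene that fell was Pmaip1, which codes for the apoptosis inducer NOXA, with signals of 435, 341 and 536 in wild type and 49.9, 65.6 and 30 in KO. Its difference of -3.01 ± 0.30 (adjusted p = 0.000539) was far larger than that of any member, and its size depends on the pseudocount, since the KO mean lay under the filter.

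The IRE1/XBP1 and ATF6 arms respond to unfolded proteins beside PERK and raise chaperones and degradation factors of the endoplasmic reticulum. Of 21 such genes 8 were higher and 1 lower, with a median of 0.27. These were 38.1% and 4.76% of the list, beside 4.64% and 4.68% of all genes. Here too the share that was lower was near that of all genes. The 4 with the largest differences were Derl3, a degradation factor (1.11 ± 0.27, adjusted p = 0.0308), Creld2 (0.89 ± 0.09, adjusted p = 0.000537), Sdf2l1 (0.76 ± 0.09, adjusted p = 0.00124) and the chaperone gene Hyou1 (0.75 ± 0.17, adjusted p = 0.0251). The gene that fell was the co-chaperone gene Dnajb9, named after its value was seen (-0.44 ± 0.09, adjusted p = 0.0114). Counts of these lists also changed when 1 array was left out, as did the share of all genes called higher. Without any one of the wild-type arrays 1 tRNA synthetase passed, Gcn1 kept its call only without KO replicate 1, the further ATF4 or CHOP genes that were higher fell to 2 without wild-type replicate 1 or 2, and those of the IRE1/XBP1 and ATF6 arms fell to 5 without any wild-type array or KO replicate 2. The differences between these lists and the members were not tested.

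**Figure D5:**
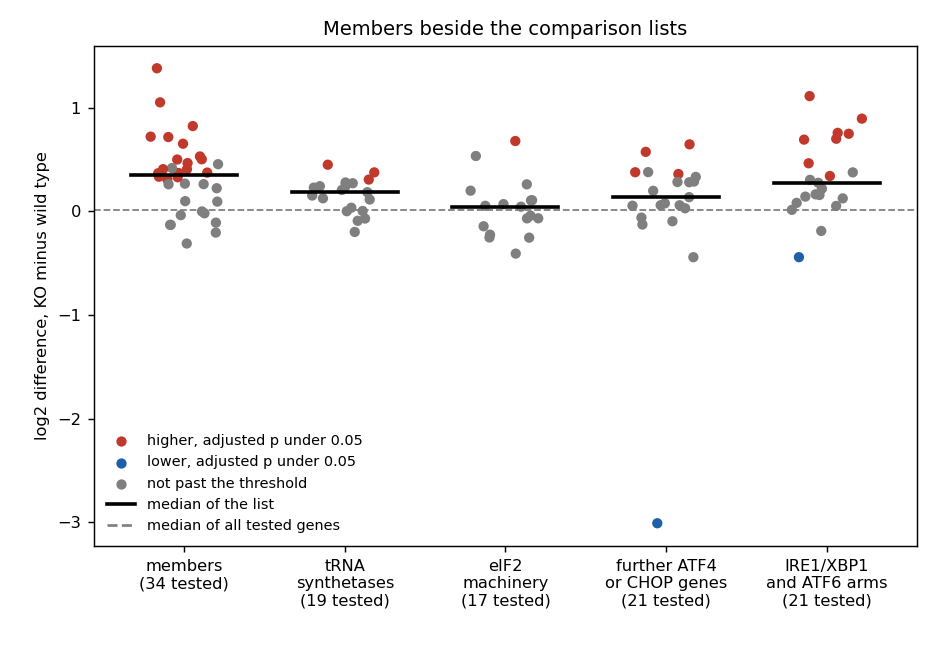
Log2 difference, KO minus wild type, of each tested member and of each tested gene of the 4 comparison lists, with the median of each list (black line) and of all 12715 tested genes (dashed line). Red points were higher and blue points lower at an adjusted p under 0.05 (limma). The members' median of 0.35 is above those of the lists, 0.04 to 0.27, and the lowest point is Pmaip1.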

How the data were processed

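The deposited values are linear intensities of each probe set on each array. The submitters' processing notes name MAS5, while the authors' methods name gcRMA. The arrays have an equal trimmed mean (500.003) and unequal medians, so the values were taken as MAS5-type signals and kept as the authors scaled them. Of 45101 probe sets 34945 have 1 gene symbol in the array annotation, 932 several, 9160 none, and 64 are controls. Through Entrez identifiers 34741 of these were found in a RefSeq gene table, and 0 symbols were updated. Values were taken as log2(signal + 7.96), the pseudocount being the 10th percentile of all signals. A probe set whose mean fell below the 40th percentile (5.80) was not tested, and the brightest of the rest stood for each gene.

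The groups were tested with limma 3.58.1 under R 4.3.3, using lmFit and then eBayes with a trend and no covariates, and the procedure was first tested on simulated data. Adjusted p-values are Benjamini-Hochberg values over all 12715 tested genes, or over all tested probe sets where a gene's other probe sets are given, with a threshold of 0.05. Errors of log2 differences are standard errors and those of signals are SDs. Arrays have no read depth, and their number limits the precision.

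The members and lists were chosen with earlier results of these data known. All members are named, array values are given for those past the threshold, the kinases, the transcription factors and Slc7a11, and of each comparison list up to 4 genes past the threshold with the largest differences. Promoters were shown for up to 4 members past the threshold that hold the core. Replicate numbers of wild type and KO were not taken as pairs, since the correlations of same-numbered arrays' deviations were 0.04, 0.01 and -0.07. The alternatives changed 1 choice at a time: the filter, the pseudocount, quantile normalization, median centring, the choice of probe set, a replicate block, array sex as a block, limma without a trend, the methods' t-test, and each array left out. The methods' t-test at an unadjusted p was added after the data had been seen.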

Additional observations from a re-analysis of the deposited data

How the results depend on the processing

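The 18 members that rose kept a positive difference under all 18 other settings. Most of these settings could not change the sign, because the groups were separate or the setting left the difference as it was. None of the 18 members passed the threshold under all settings. Fgf21 and Slc1a4 missed it under 1 setting, the methods' t-test. The members higher in KO cells were 18 with the filter at the 60th percentile (of 33 tested), beside 6.69% of all genes. They were also 18 with the pseudocount at the 1st or 25th percentile, beside 4.63% and 4.75%. With quantile normalization they were 17, beside 4.73%, as without probe sets that may bind several transcripts, beside 4.66%. They were 16 with no filter, beside 2.92%, and 14 with the mean over probe sets, beside 3.63%. With array sex as a block they were 13, beside 3.59%, and with median centring 5, beside 0.834%. With eBayes without a trend they were 3, beside 0.952%, and with the methods' t-test 0, beside 0.322%. With the replicate block, for numbers that may not pair the arrays, 11 members were higher, beside 2.71% of all genes. Aldh18a1, Asns, Atf4, Ddit3, Ppp1r15a, Shmt2 and Slc7a1 lost their calls, and the count for the eIF2 list was 0. With 1 array left out the members higher were 7 to 16, beside 1.77% to 6.11% of all genes, and the members lower 0 to 1. The median of the members was 0.26 with median centring, 0.26 with the mean over probe sets and 0.33 to 0.38 with 1 array left out. That of all genes was -0.084 with median centring and 0.015 with the mean over probe sets. With 1 array left out it was -0.0023 to 0.024, beside 0.011 as reported.

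For the comparison lists, tRNA synthetases higher in KO cells were 5 with quantile normalization or without probe sets that may bind several transcripts, 0 with median centring, without a trend or with the methods' t-test, and 1 to 3 with 1 array left out. Those of eIF2 were 0 higher with no filter, median centring, the mean over probe sets, no trend or the methods' t-test, 1 lower with quantile normalization, and 0 to 1 in either direction with 1 array left out. Further ATF4 or CHOP genes were 0 higher with median centring, 2 without a trend, 1 higher and 0 lower with the methods' t-test, and 2 to 6 higher and 1 to 2 lower with 1 array left out. Those of the IRE1/XBP1 and ATF6 arms were 2 higher with median centring, 3 without a trend and 2 with the methods' t-test. With 1 array left out they were 5 to 10 higher. The lower ones were 0 with the former settings and 0 to 1 with 1 array left out. The share of all genes called higher changed as well. It was 4.73% with quantile normalization, 4.66% without probe sets that may bind several transcripts, 2.92% with no filter and 3.63% with the mean over probe sets. With median centring it was 0.834%, without a trend 0.952%, with the methods' t-test 0.322%, and with 1 array left out 1.77% to 6.11%.

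Of 648 values of single members under alternatives 503 kept their direction and side of the threshold, 116 lost a call, 3 gained one and 26 changed sign, of which 0 passed the threshold. With 1 array left out the range crossed 0 for Psph (-0.20 to 0.060), Phgdh (-0.081 to 0.036), Slc1a5 (-0.011 to 0.22), Eif4ebp1 (-0.029 to 0.046) and Eif2ak4 (-0.23 to 0.027). Eif4ebp1 was 0.00092 with quantile normalization, 0.11 with the mean over probe sets, 0.15 without probe sets that may bind several transcripts, and 0.15 and 0.19 on its other probe sets. Slc1a5 was -0.0012 with median centring. With the mean over probe sets Slc38a2 was -0.10 and Eif2ak4 0.22, and on other probe sets Slc38a2 was -0.016 and -0.38 and Eif2ak4 0.55. Vldlr was -0.094 without probe sets that may bind several transcripts and on the same single probe set. Other probe sets gave 0.014 for Psat1, -0.067 for Atf4, -0.073 for Ddit3, -0.27 for Shmt2 and -0.20 for Slc7a1. The cause of these changes was not tested.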
